A study of Mus musculus with 8 samples.

Results

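Immediate early genes are transcribed within minutes of a stimulus from factors already present in the cell, and in neurons they serve as markers of recent firing. This account covers 10 of them, Fos, Fosb, Fosl2, Jun, Junb, Jund, Egr1, Egr3, Arc and Npas4, which were taken by symbol from a table of 45706 genes, with earlier results of these data known. Most encode transcription factors. FOS proteins pair with JUN proteins through a leucine zipper to form AP-1, JUN proteins also pair among themselves, EGR proteins bind DNA through zinc fingers, and NPAS4 is a partner-dependent helix-loop-helix factor induced by calcium entry. Arc encodes a synaptic protein that controls AMPA receptor uptake. Fos is widely used to mark active neurons, and in AgRP neurons of the arcuate nucleus, which drive feeding, it is known to be induced by fasting.

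The data are RNA sequencing of 8 libraries from the hypothalamus of mice, made by translating ribosome affinity purification. In this method ribosomes carrying GFP-tagged RpL10a are captured with anti-GFP antibodies. The captured RNA (IP, 4 libraries, labelled as hypothalamic cells expressing Agrp) was compared with RNA of the tissue homogenate (input, 4 libraries, labelled as hypothalamus). Every library, IP and input alike, came from 3 pooled mice of mixed sex, aged 11 to 12 weeks and in the random-fed state, with the genotype Mff fl/fl, AgRP-IRES-Cre tg/wt and RpL10a-GFP fl/wt. In these mice Cre expressed from the Agrp locus both deletes Mff, a mitochondrial fission gene, and switches on the tagged ribosomal protein. The control genotype is not analysed here, so no value below measures the effect of the deletion. Mice were decapitated, and the dissected arcuate region was frozen in liquid nitrogen.

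Library totals were 39.9 to 64.8 M estimated counts (M, mega) in IP and 44.1 to 74.6 M in input. Levels are counts per M counts (CPM) after TMM scaling, and a fold change therefore compares shares of RNA. All 12 listed AgRP neuron markers were higher in IP, where they summed to 3751 to 5604 CPM, against 201 to 245 CPM in input. All 11 astrocyte markers were lower and summed to 831 to 1146 CPM in IP and 2791 to 3473 CPM in input, so RNA of other cells was reduced in IP but present. Over the 17000 genes tested with edgeR's quasi-likelihood test, 24.5% were higher and 20.9% lower in IP at an adjusted p under 0.05 (4171 and 3545 genes, 45.4% in all). With upper quartile scaling these numbers were 3342 and 4384, with a median log2 fold change over all genes of -0.15, against -0.01 with TMM.

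All 10 immediate early genes had enough counts to be tested. The 3 JUN family genes were higher in IP, by 2.24 to 2.43 times as ratios of mean CPM. With offsets for GC content and length their log2 fold changes were less alike, at 1.19 for Jun, 0.84 for Junb (adjusted p = 0.0804 in edgeR, not past the threshold) and 0.65 for Jund. Arc and Fosb were lower in IP, with mean levels 4.77 and 3.43 times higher in input. Fos, Fosl2, Egr1, Egr3 and Npas4 were not past the threshold. IP replicate 3 stood above the other IP libraries for Fos, Egr1 and Npas4. Without that library these 3 genes were lower in IP at an adjusted p under 0.05 in edgeR. No other single library left out gave these calls, and removing a library with high values necessarily lowers the IP mean. With replicate 3 of both fractions left out, a choice made after seeing the data, Egr1 and Npas4 were lower at that threshold. With all libraries and a replicate block, Egr1 was lower too (log2 fold change -0.67, adjusted p = 0.00366 in edgeR). The labels do not pair the replicate numbers. The counts of 3 higher (30.0%) and 2 lower (20.0%) lie near the shares over all tested genes, and do not set the genes apart from them. The same 3 and 2 genes were the ones whose fractions did not overlap, which over all tested genes held for 24.1% with IP above and 24.0% with IP below. The median log2 fold change of the 10 genes was -0.18. In bulk RNA, fewer cells carrying a transcript and less of it per cell cannot be told apart. IP is ribosome-bound RNA and input is RNA of the homogenate, so a difference in ribosome binding cannot be told apart from these either.

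**Figure D1:**
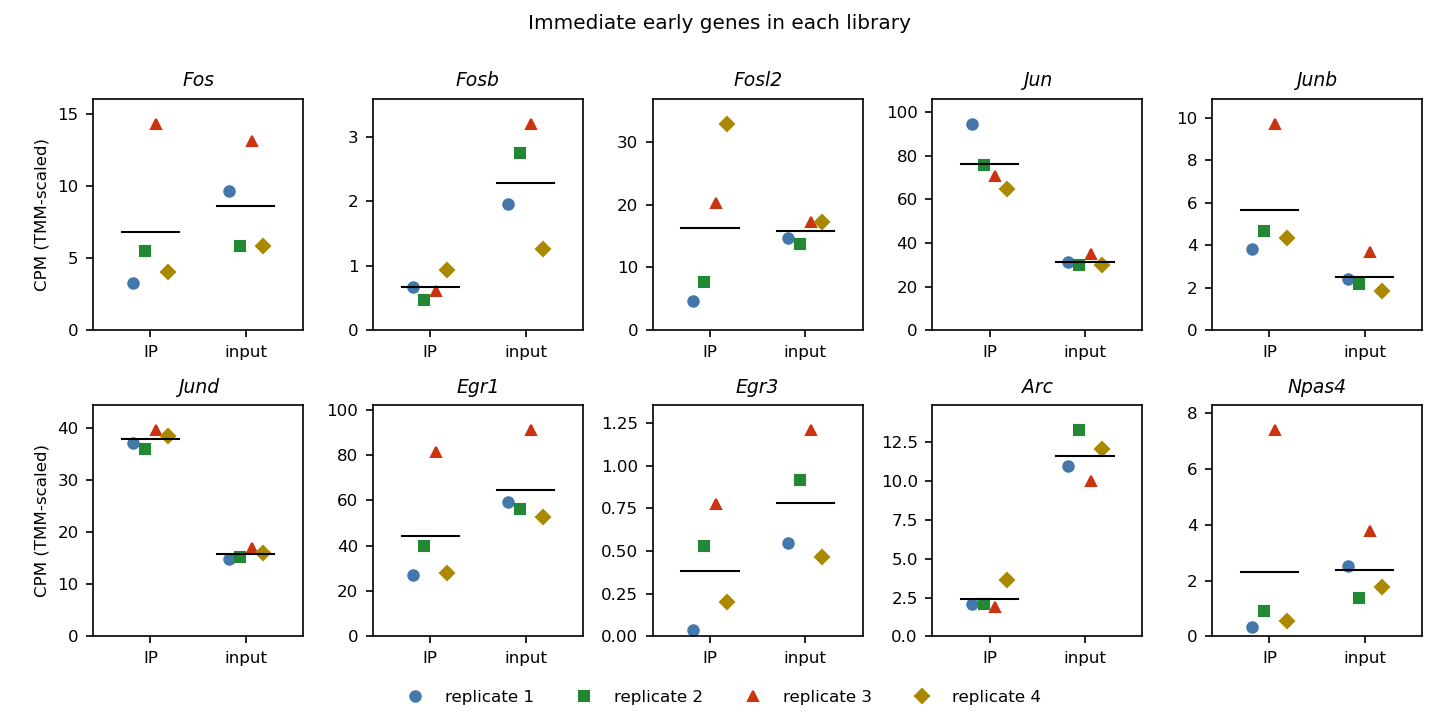
TMM-scaled CPM (vertical axes, from 0) of each immediate early gene in the 4 IP and the 4 input libraries; points are libraries, marked by replicate number, and black bars are means. Jun, Junb and Jund lie higher in every IP library than in any input library, Arc and Fosb lie lower, and replicate 3 is the highest IP library for Fos, Junb, Jund, Egr1, Egr3 and Npas4.

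JUN proteins are the AP-1 subunits that can act without a FOS partner. Jun (chromosome 4, 95049034 to 95052222, minus strand, GRCm38) had 94.8, 75.7, 70.6 and 64.8 CPM in IP replicates 1 to 4, against 31.3, 29.8, 34.8 and 30.0 CPM in input replicates 1 to 4. The lowest IP library stood well above the highest input library. Jun had a log2 fold change of 1.28 ± 0.12 (SE, n = 4 and 4 libraries; adjusted p = 5.71e-06 in edgeR).

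Jund encodes a JUN protein that many cells make without stimulation. Jund (chromosome 8, 70698949 to 70700616, plus strand) had 37.1, 36.1, 39.7 and 38.5 CPM in IP replicates 1 to 4, against 14.8, 15.2, 17.0 and 16 CPM in the input replicates. Its libraries barely differed within a fraction, with a coefficient of variation of 4.17% in IP and 6.11% in input. This gave a log2 fold change of 1.26 ± 0.09 (SE, n = 4; adjusted p = 1.01e-06 in edgeR). Jund is the most GC-rich of the genes, at 67.1% of its transcript, and with offsets for GC content and length its log2 fold change was 0.65 (adjusted p = 0.000195 in edgeR).

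Junb encodes a JUN protein that is induced by activity and restrains JUN at some targets. Junb (chromosome 8, 84974484 to 84978718, minus strand) had 3.8, 4.65, 9.71 and 4.35 CPM in IP replicates 1 to 4, against 2.40, 2.16, 3.67 and 1.84 CPM in the input replicates. The fractions did not overlap, but the lowest IP library (3.8) was close to the highest input library (3.67). Junb had a log2 fold change of 1.16 ± 0.36 (SE, n = 4; adjusted p = 0.0199 in edgeR). This call was lost with GC and length offsets (0.84, adjusted p = 0.0804) and without input replicate 1 (1.15 ± 0.42, adjusted p = 0.0521), 2 (1.10 ± 0.41, adjusted p = 0.059) or 4 (1.05 ± 0.40, adjusted p = 0.0617), where the fold stayed about as large and its SE was larger. Without IP replicate 3 the log2 fold change was 0.76 (adjusted p = 0.0456 in edgeR).

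Each JUN gene overlaps a gene on the opposite strand, and without a stated strand setting their reads cannot be separated with certainty. Junb shares 173 exon bases with Prdx2, an abundant peroxiredoxin gene that averaged 251 ± 20.2 CPM in IP and 168 ± 6.27 CPM in input (SD, n = 4). Prdx2 was higher in IP too, with a log2 fold change of 0.58 ± 0.07 (SE), and its part in the Junb counts was not tested. Junos, opposite to Jun, held at most 40.8 counts in a library, against 2578 to 5363 counts of Jun in IP and 1290 to 2209 in input. All 877 exon bases of Gm11175, opposite to Jund, lie within Jund and make up 52.6% of its exon bases. Gm11175 held 53.3 to 165.1 counts in the IP libraries and 0 in the input libraries, against 1532 to 2756 counts of Jund in IP.

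FOS proteins bind DNA as AP-1 only with a JUN partner. Fos (chromosome 12, 85473890 to 85477273, plus strand) had 3.27, 5.50, 14.3 and 4.02 CPM in IP replicates 1 to 4, against 9.62, 5.86, 13.1 and 5.86 CPM in the input replicates. Replicate 3 was the highest library of both fractions, and in IP it stood 3.35 times above the mean of the other 3 libraries. For Fos the log2 fold change was -0.34 ± 0.45 (SE, n = 4; adjusted p = 0.569 in edgeR). Without IP replicate 3, Fos was lower in IP (-1.01 ± 0.32, adjusted p = 0.0231 in edgeR). Leaving out replicate 3 of both fractions gave -0.74 (adjusted p = 0.0705).

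Fosb encodes a relative of FOS whose truncated form, ΔFOSB, builds up with repeated stimulation. The counts per gene do not separate these forms. Fosb (chromosome 7, 19302696 to 19310051, minus strand) had 0.672, 0.472, 0.605 and 0.929 CPM in IP replicates 1 to 4, against 1.96, 2.75, 3.21 and 1.26 CPM in the input replicates. All IP libraries lay below all input libraries, from 25 to 42 counts in IP and 54 to 204 counts in input. Its log2 fold change was -1.78 ± 0.45 (SE, n = 4; adjusted p = 0.00703 in edgeR). Unlike Fos, Fosb was not raised in IP replicate 3, which stood at 0.876 times the mean of the other IP libraries.

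Fosl2 encodes FRA2, a FOS relative that in other tissues tends to appear later and last longer than FOS. Fosl2 (chromosome 5, 32135801 to 32157842, plus strand) had 4.58, 7.67, 20.2 and 32.9 CPM in IP replicates 1 to 4, against 14.7, 13.7, 17.3 and 17.3 CPM in the input replicates. The IP libraries ran on both sides of the narrow input range and spanned 7.18 times from lowest to highest, against 1.26 times in input. With this spread the log2 fold change was 0.05 ± 0.47 (SE, n = 4; adjusted p = 0.945 in edgeR), and its sign changed among the alternatives. Its highest IP library was replicate 4, not replicate 3. Crem, a cAMP-responsive gene named after its values were seen, was also highest there, at 22.3 CPM in IP replicate 4 and 6.31 to 9.25 CPM in the other IP libraries.

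Within a library, the level of one gene over another does not depend on scaling. JUN family transcripts outnumbered FOS family transcripts in all 8 libraries when summed per kb of transcript. The JUN sum was 22.3, 12.3, 5.12 and 6.37 times the FOS sum in IP replicates 1 to 4, and 2.73, 3.50, 2.38 and 3.48 times in the input replicates. This ratio was thus higher in every IP library than in any input library, and lowest in IP where Fos or Fosl2 was high.

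Of 8 ratios of 2 genes compared between fractions, none passed after adjustment, and 1 had an exact p under 0.05. The log2 ratio of Jund to Fos was 2.74 ± 0.90 in IP and 0.96 ± 0.54 in input (SD, n = 4), with no overlap. The difference was 1.78, with a 2-sided exact permutation p of 0.0286 (no smaller p is possible with 70 arrangements) and 0.229 after Benjamini-Hochberg adjustment over the 8 ratios. The log2 ratio of Jund to Jun averaged -1.0 in both fractions (SD 0.27 in IP and 0.08 in input, exact permutation p = 1, n = 4). The ratios were not run with GC and length offsets. With those offsets the log2 fold changes were 0.65 for Jund, 1.19 for Jun and -0.42 for Fos, so the ratios may depend on them. The log2 ratio of Arc to Fos was -1.27 ± 1.20 in IP and 0.51 ± 0.74 in input (SD, n = 4, exact permutation p = 0.0571). The other ratios had exact p-values from 0.143 to 0.914.

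**Figure D2:**
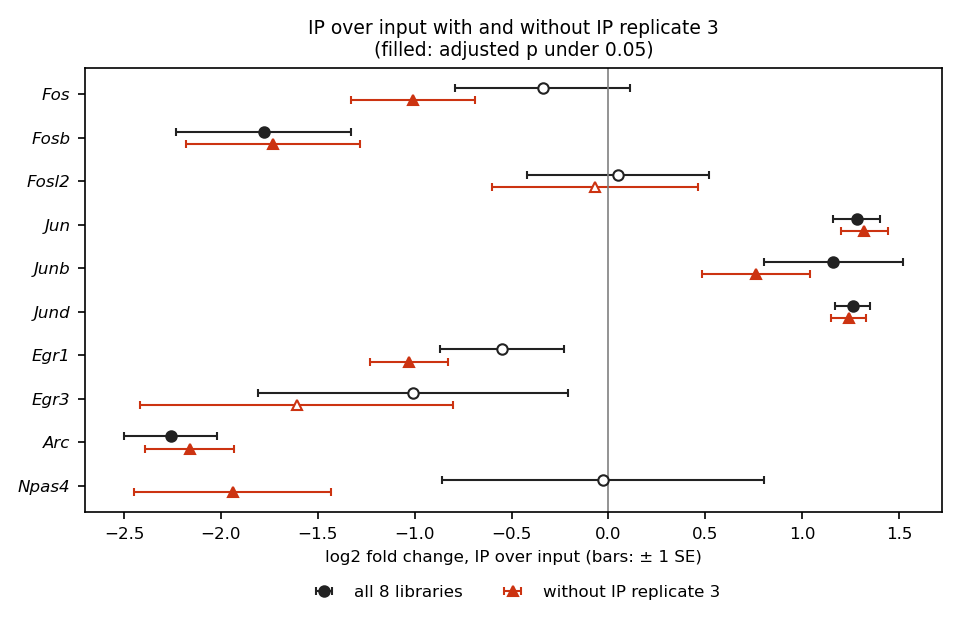
Log2 fold change of IP over input for each gene with its standard error, over all 8 libraries (circles) and without IP replicate 3 (triangles); filled symbols have an adjusted p under 0.05 in edgeR. Fos, Egr1 and Npas4 move to -1.01, -1.03 and -1.94 without that library, while Jun, Jund, Fosb and Arc stay close to their values over all libraries.

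The promoter of Fos is known to respond to calcium and cAMP through CREB. RefSeq windows from 250 bases before to 50 bases after the transcript start (GRCm38.p6) were matched for 7 of the 10 genes. They are shown for 4 genes chosen with their values known: Fos, Npas4 and Junb, which were highest in IP replicate 3, and Jun, which was not. Capitals mark the CRE half-site TGACG on either strand (CGTCA when read on the printed strand) and the TATA box TATAAA. The windows are chr12:85473640-85473939 (plus strand, Fos), chr19:4989922-4990221 (minus strand, Npas4), chr8:84978699-84978998 (minus strand, Junb) and chr4:95052173-95052472 (minus strand, Jun).
Fos: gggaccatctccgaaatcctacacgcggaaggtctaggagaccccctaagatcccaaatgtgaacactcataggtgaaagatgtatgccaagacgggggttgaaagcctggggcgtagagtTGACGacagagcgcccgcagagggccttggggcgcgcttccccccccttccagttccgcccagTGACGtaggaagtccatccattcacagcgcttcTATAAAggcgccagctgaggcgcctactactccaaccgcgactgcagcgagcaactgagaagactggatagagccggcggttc
Npas4: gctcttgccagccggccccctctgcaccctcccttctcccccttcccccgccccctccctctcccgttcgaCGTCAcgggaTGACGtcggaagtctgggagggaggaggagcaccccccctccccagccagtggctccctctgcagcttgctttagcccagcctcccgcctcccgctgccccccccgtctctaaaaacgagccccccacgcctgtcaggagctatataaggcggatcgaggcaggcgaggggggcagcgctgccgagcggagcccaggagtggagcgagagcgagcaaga
Junb: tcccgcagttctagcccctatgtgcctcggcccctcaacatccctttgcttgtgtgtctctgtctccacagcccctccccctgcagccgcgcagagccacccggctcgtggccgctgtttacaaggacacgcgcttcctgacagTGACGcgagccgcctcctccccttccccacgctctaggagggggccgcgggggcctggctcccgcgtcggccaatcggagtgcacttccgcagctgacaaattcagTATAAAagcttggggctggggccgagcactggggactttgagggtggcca
Jun: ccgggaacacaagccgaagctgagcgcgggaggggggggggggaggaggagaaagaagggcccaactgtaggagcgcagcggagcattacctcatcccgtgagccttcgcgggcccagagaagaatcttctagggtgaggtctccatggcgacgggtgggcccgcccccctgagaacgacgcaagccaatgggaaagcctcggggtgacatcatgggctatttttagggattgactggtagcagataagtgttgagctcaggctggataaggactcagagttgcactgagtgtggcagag
Fos holds the half-site at 129 and 66 bases before the start and a TATA box at 33 bases before it. Npas4 holds the half-site at 179 and 169 bases before the RefSeq start, once on each strand. Junb holds it at 106 bases before its RefSeq start, with a TATA box letter match at that start itself. The gene start given above for Junb lies downstream of the RefSeq start, so this match lies upstream of the gene start. None of the letters searched occur in the Jun window. Whether the half-site goes with the values of replicate 3 was not tested. Fosb holds it at 60 bases before the start. In replicate 3 Fosb stood at 0.876 times the mean of the other libraries in IP and 1.61 times in input. Jund has none in its window. In replicate 3 it was highest by a small margin, at 1.07 times the mean of the other IP libraries. The RefSeq window of Jund ends upstream of the gene start given above, so it does not cover that start. The windows of Npas4 and Fosl2 lie within the coordinates given here for these genes, and do not cover their gene starts either. Positions are counted from the RefSeq start. Over the 7 windows, that of Jund included, 4 hold a half-site, against 20.8% of 32851 RefSeq windows of the same length. The full CRE TGACGTCA (1.79% of all windows), the AP-1 site TGANTCA (7.81%) and the CArG box of serum response factor (1.63%) occur in 0 of the 7, and the EGR site GCGNGGGCG (5.55%) in 2, those of Fosb and Fosl2. The half-site is part of the full CRE, and both strands were searched. These are letters in a window and show no binding.

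EGR proteins are zinc finger factors, and EGR1 also has appreciable levels in unstimulated brain. Egr1 (chromosome 18, 34859823 to 34864984, plus strand) had 27.1, 39.7, 81.5 and 27.9 CPM in IP replicates 1 to 4, against 59.3, 56.1, 91.1 and 52.8 CPM in the input replicates. Replicate 3 was the highest library in both fractions, and the other 3 IP libraries lay below all input libraries. Egr1 had a log2 fold change of -0.55 ± 0.32 (SE, n = 4; adjusted p = 0.191 in edgeR), and -1.03 ± 0.20 without IP replicate 3 (adjusted p = 0.00195). Leaving out replicate 3 of both fractions gave -0.83 ± 0.15 (adjusted p = 0.00204 in edgeR). With all libraries and a replicate block it was -0.67 (adjusted p = 0.00366 in edgeR), though the labels do not pair the replicate numbers.

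Egr3, a relative of Egr1 that is also required for muscle spindles to form, was the least abundant gene per kb. Egr3 (chromosome 14, 70077203 to 70082614, plus strand) had 2, 28, 54 and 8 counts in IP replicates 1 to 4, against 30, 68, 52 and 20 counts in the input replicates. In CPM these are 0.0354, 0.529, 0.778 and 0.201 in IP, against 0.546, 0.916, 1.21 and 0.465 in input. The fractions overlapped, and replicate 3 was again the highest in both. Its log2 fold change was -1.01 ± 0.80 (SE, n = 4; adjusted p = 0.335 in edgeR) and did not exceed the spread between libraries.

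Npas4 is confined largely to neurons and responds to depolarization. Npas4 (chromosome 19, 4984355 to 4990316, minus strand) had 0.354, 0.926, 7.39 and 0.553 CPM in IP replicates 1 to 4, against 2.53, 1.37, 3.79 and 1.77 CPM in the input replicates. IP replicate 3 held 513 counts, and the other IP libraries 20 to 49. That library exceeded every input library, while the other 3 IP libraries lay below all of them. IP replicate 3 stood 12.1 times above the mean of the other IP libraries, the largest such factor among the 10 genes. Over all libraries the log2 fold change of Npas4 was -0.03 ± 0.83 (SE, n = 4, adjusted p = 0.983 in edgeR). Without IP replicate 3 it was -1.94 ± 0.51 (adjusted p = 0.00908 in edgeR), and without replicate 3 of both fractions -1.63 (adjusted p = 0.0399).

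Arc showed the largest difference from input among the 10 genes, and no rise in replicate 3. Arc (chromosome 15, 74669083 to 74672570, minus strand) had 2.10, 2.12, 1.90 and 3.62 CPM in IP replicates 1 to 4, against 11.0, 13.3, 10.0 and 12.1 CPM in the input replicates. The fractions lay far apart, IP replicate 4 stood above the other IP libraries, and replicate 3 was the lowest library in each fraction. Arc had a log2 fold change of -2.26 ± 0.24 (SE, n = 4; adjusted p = 1.57e-05 in edgeR). Every marker list other than that of AgRP neurons had a negative median log2 fold change. The medians were -1.86 for the list of other neurons, -1.39 for that of other arcuate neurons and -1.84 for microglia. Astrocyte and oligodendrocyte markers had medians of -1.64 and -1.73, and endothelial and mural markers -1.22. The part of these cells in the Arc difference was not tested.

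The level of the genes relative to each other was compared as CPM per kb of the longest coding transcript. In IP, Jun (24.0 ± 4.08) and Jund (22.7 ± 0.945) led and did not differ beyond their spread (SD, n = 4). The libraries of Jund lay apart from those of the next gene, Egr1 (9.83 ± 5.72). Fos (3.21 ± 2.42), Junb (3.11 ± 1.52) and Fosl2 (2.50 ± 1.98) followed with overlapping ranges. Arc (0.797 ± 0.260), Npas4 (0.637 ± 0.939), Fosb (0.177 ± 0.0508) and Egr3 (0.0979 ± 0.0844) came last, each overlapping the next.

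In input, Egr1 (14.5 ± 3.95) led on the same scale and stood apart from Jun (9.87 ± 0.728), which did not differ from Jund (9.45 ± 0.578) beyond the spread. Fos (4.08 ± 1.64) and Arc (3.8 ± 0.465) came next and overlapped. Fosl2 (2.41 ± 0.281) and Junb (1.39 ± 0.445) each stood apart from the gene above. Npas4 (0.653 ± 0.294) and Fosb (0.607 ± 0.228) overlapped, and Egr3 (0.199 ± 0.0876) was lowest. Egr1 thus ranked above Jun and Jund in input and below both in IP.

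**Figure D3:**
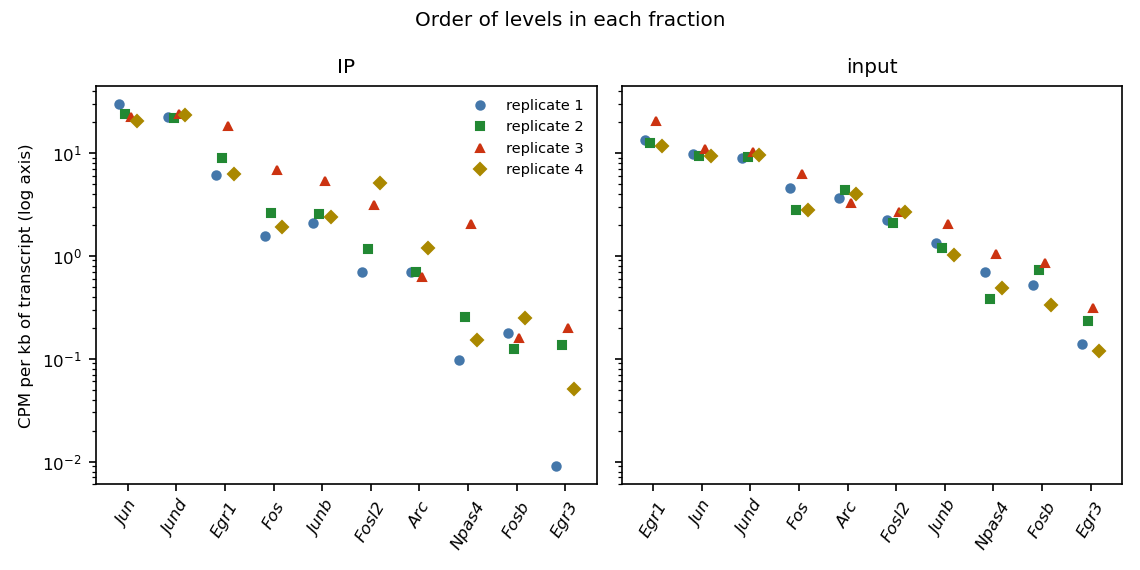
CPM per kb of transcript (log axis) of the 10 genes in IP (left) and input (right), each ordered by its mean; points are libraries, marked by replicate number. Jun and Jund lead in IP, Egr1 leads in input, and the spread between libraries is wide in IP for Egr1, Fos, Fosl2, Npas4 and Egr3.

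The genes differed widely in how much they varied between libraries. On the log2 CPM scale the SD over the 4 IP libraries ran from 0.06 for Jund to 1.89 for Npas4, with a median over the 10 genes of 0.67, against 0.36 over all tested genes. Over the 4 input libraries it ran from 0.09 for Jund to 0.63 for Npas4, with a median of 0.39, against 0.14 over all tested genes. In input the SD of Npas4, Egr3, Fosb and Fos was larger than that of 95.7%, 95.3%, 94.8% and 94.2% of tested genes. Jun and Jund varied less than the typical gene in both fractions. These comparisons were not matched for level, and low counts add counting error to the SD. In input Egr3 held 20 to 68 counts, Fosb 54 to 204 and Npas4 76 to 163, against 1290 to 2209 for Jun.

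Replicate 3 carried the highest values of most of these genes. This pattern was noticed in the data, so the counts describe it and are not a test. Of the 10 genes, 6 were highest in IP replicate 3 and 8 in input replicate 3, against 28.6% and 25.1% of all tested genes. For 6 of them, Fos, Junb, Jund, Egr1, Egr3 and Npas4, replicate 3 was the highest library of both fractions, against 8.19% of all tested genes. For Jund the margin was small, at 1.07 times the mean of the other libraries in IP and 1.11 times in input. In input, replicate 3 stood above the mean of the other libraries by 1.84 times for Fos, 1.63 times for Egr1 and 2.01 times for Npas4. The labels do not say whether an IP and an input library with the same number come from the same pool of mice.

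Among 41 other immediate early genes, 12 (29.3%) were also highest in replicate 3 of both fractions. Of these, Btg2, an anti-proliferative gene, had 4.49, 7.05, 29.1 and 8.46 CPM in IP replicates 1 to 4, and Nr4a1, an orphan nuclear receptor gene, had 1.24, 4.02, 7.65 and 1.83 CPM. Trib1, a pseudokinase gene, had 3.48, 11.3, 22.9 and 8.24 CPM in the same libraries. Others were low in that library. Ier3, a gene of the stress response, had 2.47, 4.16, 0.519 and 1.66 CPM in IP replicates 1 to 4, and Csrnp1 had 2.46, 1.49, 0.490 and 0.754 CPM. Klf2 had 0.442, 0.472, 0.0432 and 0.1 CPM in IP replicates 1 to 4, and Dusp2 had 0.371, 0.642, 0 and 0.527 CPM. Both lie near the floor, where counting error is large. In input, Klf2 was highest in replicate 3, at 0.954 CPM. These 7 genes were named after their values were seen. Over the whole list the median deviation from the fraction's mean was 0.08 on the log2 scale in IP replicate 3 and 0.13 in IP replicate 4. Its summed level was 964 CPM in IP replicate 3 and 988 CPM in IP replicate 4. In input replicate 3 the median deviation was 0.14 and the sum 522 CPM, both the highest of the input libraries. Of the 41 genes, 18 were highest in IP replicate 3 and 25 in input replicate 3, against 28.6% and 25.1% of all tested genes. Of 21 tested activity-regulated effector genes, such as Bdnf and Vgf, 2 were highest in IP replicate 3 and 3 in input replicate 3.

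Some marker lists moved in replicate 3 and others did not. In IP replicate 3 the AgRP neuron markers summed to 3751 CPM, below the 4360 to 5604 CPM of the other IP libraries. Astrocyte markers summed to 1146 CPM, against 831 to 910 CPM in the other IP libraries, and oligodendrocyte markers to 912 CPM, against 622 to 758 CPM. Other neuron markers stood at 1.41 times the mean of the other IP libraries, and endothelial and mural markers at 1.82 times. Oligodendrocyte precursor markers stood at 1.29 times that mean. Microglia (1.00 times), tanycyte and ependymal (1.01) and other arcuate neuron markers (1.07) stood close to the other IP libraries. In input replicate 3, 8 of the 10 genes were highest. Astrocyte (0.843 times), oligodendrocyte (0.899), oligodendrocyte precursor (0.914) and other neuron markers (0.860) stood below the mean of the other input libraries there. Endothelial and mural markers stood above it, at 1.2 times. For these lists the marker sums in IP replicate 3 were 0.373 to 0.615 times those in input replicate 3. Of the genes highest in both, Egr3 stood at 0.644, Egr1 at 0.895 and Fos at 1.09 times the level in input replicate 3. Npas4 stood at 1.95, Jund at 2.34 and Junb at 2.64 times that level. Such a ratio also holds the difference between fractions seen in the other replicates. For Jund it was 2.51, 2.37, 2.34 and 2.4 in replicates 1 to 4, lowest in replicate 3. For the others it was highest in replicate 3. The labels do not pair these numbers. The part of other cells' RNA in the high values of this library was not tested.

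**Figure D4:**
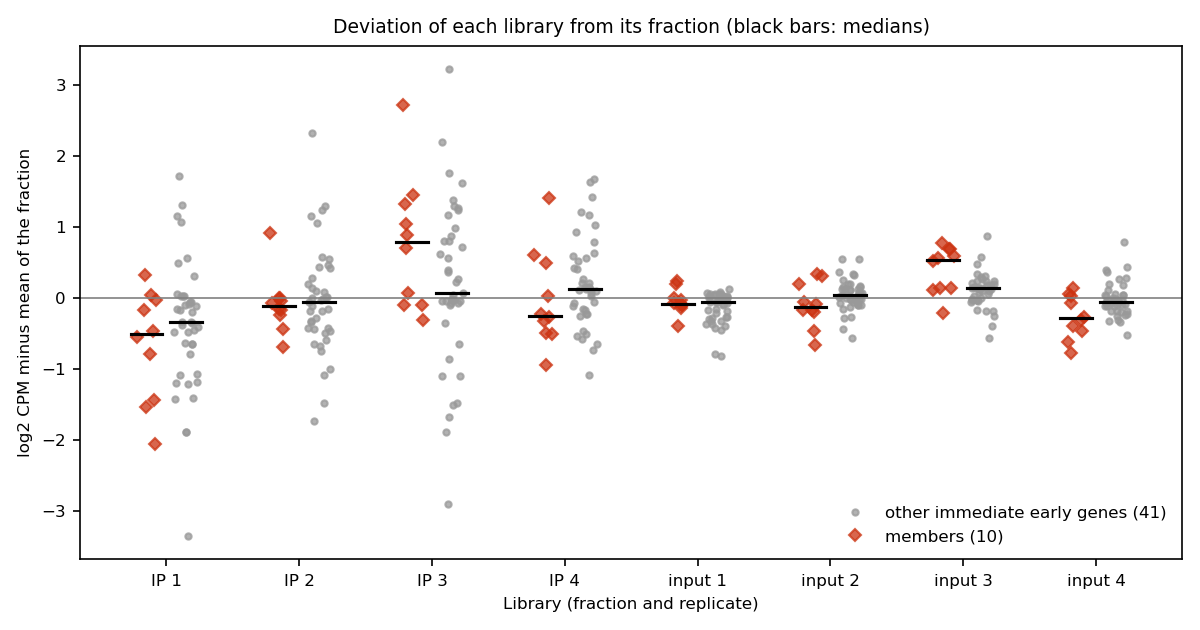
Log2 CPM of each gene minus its mean over the 4 libraries of the fraction (vertical axis), for the 10 immediate early genes (red) and 41 other immediate early genes (grey) in each library; black bars are medians. The median of the 10 genes is 0.80 in IP replicate 3 and 0.54 in input replicate 3, and at or below -0.08 in each other library.

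The other genes around this pathway were read from lists, set beside the shares over all tested genes of 24.5% higher and 20.9% lower. Of the 41 other immediate early genes, 7 were higher in IP, 5 were lower and 29 did not pass, with a median log2 fold change of -0.27. Rgs2, a regulator of G protein signalling, averaged 513 ± 29.4 CPM in IP and 96.6 ± 5.44 CPM in input (SD, n = 4), a log2 fold change of 2.41 ± 0.07 (SE). The proto-oncogene Myc was higher by 1.64 ± 0.16, the stress sensor gene Gadd45g by 0.96 ± 0.17 and the trafficking gene Arf4 by 0.55 ± 0.07. Nr4a2, a nuclear receptor gene of dopamine neurons, was lower, with 5.96 ± 3.05 CPM in IP and 23.2 ± 2.13 CPM in input (SD, n = 4) and a log2 fold change of -1.97 ± 0.28 (SE). The phosphatase gene Dusp4 (-2.25 ± 0.42), the kinase gene Plk2 (-1.15 ± 0.28) and the transcription factor gene Klf4 (-2.10 ± 0.63) were lower as well.

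Activity-regulated effector genes, which act later at synapses and in secretion, split: of 21 tested, 6 were higher and 7 lower (median -0.16). The exchange factor gene Rasgrf1 (1.06 ± 0.07), the prohormone convertase gene Pcsk1 (1.16 ± 0.11) and the synaptotagmin gene Syt4 (0.91 ± 0.09) were higher. The potassium channel gene Kcna1 (-1.87 ± 0.11), the neuritin gene Nrn1 (-1.61 ± 0.13), the pentraxin gene Nptx1 (-1.66 ± 0.18) and the scaffold gene Homer1 (-0.49 ± 0.12) were lower.

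Regulators that act upstream of immediate early genes numbered 38, of which 13 were higher and 10 lower (median 0.04). Mapk3, which encodes ERK1, averaged 243 ± 12.2 CPM in IP and 135 ± 4.21 CPM in input (SD, n = 4), a log2 fold change of 0.85 ± 0.06 (SE). The CREB relative Atf1 (0.70 ± 0.09), the kinase gene Rps6ka2 (0.64 ± 0.07) and the calcium channel gene Cacna1d (0.91 ± 0.13) were higher. Mapk8, which encodes the JUN kinase JNK1, was lower (-0.86 ± 0.11), as were the calcineurin gene Ppp3ca (-0.70 ± 0.09), Rps6ka3 (-0.66 ± 0.10) and Mef2c (-1.65 ± 0.22), a factor that controls activity-dependent transcription.

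Of 17 tested genes for other basic leucine zipper factors, 4 were higher and 7 lower (median 0.04). The stress factor Atf3, which can pair with JUN, averaged 1.57 ± 0.410 CPM in IP and 0.366 ± 0.109 CPM in input (SD, n = 4), a log2 fold change of 2.10 ± 0.50 (SE), and Atf5 was higher by 1.38 ± 0.16. Atf7 (-1.30 ± 0.12), Mafg (-0.56 ± 0.11) and Maf (-0.92 ± 0.20) were lower. Among 11 genes for cofactors of the 10 proteins, 2 were higher and 4 lower (median -0.15). Nab1 (-0.95 ± 0.13) and Nab2 (-0.73 ± 0.25), corepressors of EGR factors, and Arnt2 (-0.72 ± 0.09), a partner of NPAS4, were lower. Fbxw7 (0.70 ± 0.08), part of a ubiquitin ligase that targets JUN, and Dlg4 (0.87 ± 0.07), which encodes the postsynaptic scaffold PSD-95, were higher.

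The genes most like Fos and Arc across libraries were found by the root mean square difference of log2 CPM, each gene centred on its own mean over the 8 libraries. For Fos they were Gm37696 (0.29), Gm17300 (0.30) and the homeobox gene Nkx2-4 (0.31). Nkx2-4 had 1.48, 2.38, 5.36 and 1.98 CPM in IP replicates 1 to 4 and 4.07, 3.92, 3.93 and 2.70 CPM in the input replicates. It shared with Fos the high value in IP replicate 3 but not the one in input replicate 3. For Arc they were Arap2 (0.11), Abcd2 (0.16) and Heyl (0.16). These 3 genes had log2 fold changes of -2.31 ± 0.16, -2.36 ± 0.17 and -2.30 ± 0.16 (SE, n = 4), close to that of Arc. The genes were chosen for likeness over these same libraries. Their closeness to Fos or Arc therefore follows from the choice and is not a separate result.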

How the data were processed

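Ribosome-bound (IP) and input RNA was sequenced in 4 libraries each. The values the authors deposited are estimated counts per gene without normalization. Salmon 0.14.1 and GRCm38.p6 are named in the submitters' processing notes, with no annotation release, trimming or strand option. Reads shared by overlapping genes are assigned by Salmon's model and are uncertain. Groups and replicate numbers came from the sample titles.

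Estimated counts (39.9 to 74.6 M per library) were rounded. The test was edgeR 4.0.16 (R 4.3.3) with filterByExpr (minimum count 10), TMM factors, a quasi-likelihood fit with no covariate and Benjamini-Hochberg adjustment over all 17000 genes (threshold 0.05). SE is the absolute log2 fold change over the square root of F. Log2 CPM used a prior count of 2. Ratios of 2 genes used log2 of counts plus 0.5 and an exact permutation test, whose smallest p is 0.0286. Coordinates, length and GC content came from GENCODE M21 (GRCm38), which held 98.8% of identifiers. On simulated data for this comparison (16417 genes), 45.8% of genes changed 2-fold and 61.8% of those changed 4-fold were recovered, with 3 false calls among 16224 unchanged genes.

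The genes and lists were chosen with earlier results of these data known. From each other list the 4 genes with the smallest p in each direction may be named, and others are marked. Alternatives were RLE, upper quartile or no scaling factors, other filters, removal of ribosomal RNA and mitochondrial genes, DESeq2 1.42.0, limma-voom (limma 3.58.1), a replicate block, GC and length offsets, and leaving out each library. Leaving out replicate 3 of both fractions was added after seeing the data.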

Additional observations from a re-analysis of the deposited data

Results flagged for a closer look

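Arc in IP replicate 4, at 3.62 CPM, stood apart from the other 3 IP libraries, at 1.90 to 2.12 CPM. The gap was 0.835 of the whole range on the log2 scale, just above Dixon's critical value for 4 samples. It was 1 such case among 20 groups examined (10 genes in 2 fractions), and chance alone gives about 1 in 20. Arc stayed lower in IP without this library (log2 fold change -2.51, adjusted p = 6.81e-06 in edgeR).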

How the results depend on the processing

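Jun and Jund stayed higher and Fosb and Arc lower in IP, past the threshold, under all alternatives run. Over all genes 7716 were called, 7295 to 8680 under other settings and 6523 to 8738 with libraries left out. The number of immediate early genes lower in IP was 2 to 5 with 1 library left out. It was 5 without IP replicate 3 and 4 without replicate 3 of both fractions, a choice made after seeing the data. Fosl2 changed sign with upper quartile factors (-0.09), limma-voom (-0.37), and without IP replicate 3 (-0.07), IP replicate 4 (-0.53), input replicate 2 (-0.01) or both replicates 3 (-0.03), and ranged from -0.53 to 0.36 with 1 library left out. Npas4, at -0.03 in the reported fit, was 0.11 with library totals alone and -0.71 with limma-voom, and ranged from -1.94 to 0.34 with 1 library left out, at 0.34, 0.24 and 0.30 without IP replicates 1, 2 and 4 and 0.02 and 0.31 without input replicates 1 and 3. None of the 8 ratios passed in any setting. With 1 library left out the difference ranged from -0.46 to 0.39 for Fosl2 to Fos (-0.01 without input replicate 3), from -0.50 to 0.09 for Junb to Jun and from -0.09 to 0.11 for Jund to Jun (0.02, 0.01 and 0.03 without IP 2, input 2 and input 4). With 3 against 4 libraries no exact p can fall below 0.0571. The causes were not tested.

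Same-numbered IP and input libraries had deviations correlated at 0.0484 to 0.0836, and each library correlated best with its own number, a hint from the data and not from the design. With the replicate block 7592 genes were called, and 3 immediate early genes were higher and 3 lower, the third being Egr1 (-0.67, adjusted p = 0.00366 in edgeR). Fosl2 was -0.33 and Npas4 -1.0 with the block, and -0.23 and -1.04 with the block and GC and length offsets, where Egr1 was -0.76 (adjusted p = 0.00198). With both, Junb was not past the threshold (0.77, adjusted p = 0.0531). A paired sign-flip test of the ratios, with a smallest p of 0.125, passed 0. Egr3 held 2 to 68 counts per library, so counting error is a larger part of its values than for genes with more counts.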
